A study of Homo sapiens with 43 samples.

Results

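IL11, LIF, IL6ST, OSMR, STAT3 and SOCS3 are 6 of the 20052 genes in the count table of a glucocorticoid experiment on the human cell line HMC3. They were chosen by name, with earlier results of these data known, as ligands, receptors, transcription factor and feedback inhibitor of a signalling route. The shares of them called below, set against all genes, are therefore descriptions. All 6 passed the filter on low counts. IL11 and LIF are secreted cytokines of the interleukin-6 family, and each binds a receptor chain of its own before it engages gp130, the shared signal-transducing chain encoded by IL6ST. OSMR pairs with gp130 to form a receptor for oncostatin M. Engaged gp130 activates JAK kinases, which phosphorylate STAT3, and STAT3 then enters the nucleus and turns on target genes. One of these is SOCS3, whose product binds gp130 and shuts the signal down. In the brain these cytokines are known for actions on glia, and glucocorticoids are known to restrain many cytokine genes.

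HMC3 is an immortalised line distributed as human microglia, and the groups are flasks of this one line. The hormones were dexamethasone at 1 or 0.01 µM and hydrocortisone (cortisol) at 10 or 0.01 µM, and the references were the ethanol vehicle, kept separately for every hormone and dose, and medium with nothing added. Cells were exposed for 3 days and harvested (day 3), and part of each flask's cells was reseeded in normal medium for a washout of 3 days (day 6). The 43 libraries fell into 17 groups: on day 3, 4 hormone groups and 4 vehicle groups of 3 libraries each and 1 untreated group of 3, and on day 6, 4 hormone groups of 3 and 4 vehicle groups of 1 library. Untreated cells of day 6 were not analysed here. Flasks were harvested individually, but nothing says that cultures were started independently, so the p-values rest on a spread between libraries that may be technical.

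Total counts ran from 7638840 to 24426643 per library with a median of 15110044. Genes of the ribosomal RNA repeats took 9.897 to 94.864% of them, and over 75% in 7 libraries of 7 different groups. The most extreme was dexamethasone 0.01 µM, day 3, replicate 3, in which IL11 received 20 counts. Of 12 markers of microglia and macrophages, 3 were in the table and none had a median above 1 CPM (counts scaled to a common library size, here of non-ribosomal counts), with CSF1R highest at 0.273. Of 11 fibroblast and pericyte markers, 9 were in the table and 7 had a median above 1 CPM, led by COL1A1 at 1680 and VIM at 1630. The labelled cell type was thus not borne out by its defining markers. In bulk RNA, fewer cells of a type and less RNA per cell cannot be told apart.

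Levels below are CPM of the library size after TMM scaling, and changes are log2 ratios from edgeR's quasi-likelihood test, called where the Benjamini-Hochberg adjusted p over 16816 tested genes was below 0.05. IL11 (ENSG00000095752) lies on GRCh38 chromosome 19 from 55364389 to 55370463 on the minus strand. LIF (ENSG00000128342) lies on chromosome 22 from 30240447 to 30246851, also on the minus strand. IL6ST (ENSG00000134352) and OSMR (ENSG00000145623) are both on chromosome 5, from 55935095 to 55994993 on the minus strand and from 38845858 to 38945596 on the plus strand. STAT3 (ENSG00000168610) and SOCS3 (ENSG00000184557) are on the minus strand of chromosome 17, from 42313324 to 42388568 and from 78356778 to 78360077. Per kilobase of exon, the median level over the 43 libraries was highest for IL6ST (17.7 CPM per kb), then SOCS3 (10.4), STAT3 (8.75), IL11 (8.42), OSMR (8.21) and LIF (4.68). These medians pool hormone and reference libraries, and the length is that of all annotated exons merged. The day 3 vehicles alone gave 17.2 for IL6ST, 11.6 for SOCS3, 11.2 for IL11, 8.57 for OSMR, 8.54 for STAT3 and 5.72 for LIF. By this measure the receptor chain IL6ST was the highest of the 6 per length both ways, and the cytokine LIF the lowest.

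The promoters of IL11 and IL6ST are shown because these are the genes that changed most. Each runs 5′ to 3′ on the gene's own strand up to the base before the annotated gene start, as RefSeq sequence of GRCh38.p14: for IL11 chr19:55370464-55370713 (250 bases, 67.2% G and C) and for IL6ST chr5:55994994-55995213 (220 bases, 74.5%). Capitals mark an AP-1 motif, the sequence bound by dimers of Fos and Jun proteins.
IL11: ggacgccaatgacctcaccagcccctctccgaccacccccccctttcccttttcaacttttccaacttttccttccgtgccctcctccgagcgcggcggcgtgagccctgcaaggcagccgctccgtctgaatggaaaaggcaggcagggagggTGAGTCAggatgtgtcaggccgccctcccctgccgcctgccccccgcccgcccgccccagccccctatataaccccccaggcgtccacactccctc
IL6ST: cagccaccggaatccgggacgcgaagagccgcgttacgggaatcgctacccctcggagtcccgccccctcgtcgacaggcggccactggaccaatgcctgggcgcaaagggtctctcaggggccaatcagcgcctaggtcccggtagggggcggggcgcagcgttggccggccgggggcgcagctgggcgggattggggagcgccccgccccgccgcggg

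Of 4 motifs searched on both strands, IL11 held AP-1 (TGANTCA), as TGAGTCA from base -96 to -90 before the gene start, and neither IL11 nor IL6ST held the CRE (TGACGTCA), STAT (TTCNNNGAA) or glucocorticoid receptor (ACANNNTGT) letters in these windows. Among 35116 RefSeq promoters, the AP-1 letters were in 6.57%, the CRE letters in 1.65%, the STAT letters in 6.57% and the receptor letters in 4.61%. The shorter windows of OSMR (96 bases) and STAT3 (124 bases) held none of the 4. LIF had no entry, and the SOCS3 entries start elsewhere than the annotated gene and were not used.

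The first question was which of these genes a hormone changed beyond its own vehicle after 3 days. Whether hormone and vehicle libraries overlap is given below as a description, since overlap was not counted over all genes. IL11 fell and IL6ST rose with both dexamethasone doses and with hydrocortisone at 10 µM. A less steep fall of OSMR passed with 2 of these 3 treatments, a rise of STAT3 passed with 1, and LIF and SOCS3 passed in none. With hydrocortisone at 0.01 µM no member passed. Of the 6 genes, 4 were called with dexamethasone at 1 µM against 22.6% of all tested genes, 2 with dexamethasone at 0.01 µM against 14%, and 3 with hydrocortisone at 10 µM against 13.1%. The hormone itself acted in these libraries: TSC22D3, a classical glucocorticoid-induced gene, was at 52.6 ± 4.04 CPM with dexamethasone at 1 µM and at 3.3 ± 0.973 CPM in its vehicle (SD, n = 3 each).

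IL11, the cytokine best known for fibrosis and bone turnover, was at 4, 5.86 and 5.92 CPM in the libraries with dexamethasone at 1 µM, against 21.2, 21.3 and 33.9 CPM in their vehicle. The highest hormone library thus stayed far below the lowest vehicle library, and the level was 20.7% of the vehicle's (log2 change -2.27, SE 0.24, edgeR adjusted p = 2.35e-08). With dexamethasone at 0.01 µM the libraries held 5.16, 6.00 and 9.81 CPM, against 19.5, 20.4 and 37.6 CPM in vehicle. This was 26.6% of the vehicle's level (-1.91, SE 0.24, adjusted p = 9.39e-07), again without overlap. The library at 9.81 CPM is the one dominated by ribosomal RNA, and without the 7 libraries above 75% the change was -2.37 (adjusted p = 7.4e-06). With hydrocortisone at 10 µM the values were 6.93, 7.60 and 7.71 CPM, against 28.1, 30.5 and 30.7 CPM in vehicle. The groups were tight and did not overlap (-2.00, SE 0.24, adjusted p = 3.48e-07). With hydrocortisone at 0.01 µM IL11 stood at 25.2, 28.0 and 31.4 CPM, against 29.3, 33.5 and 36.9 CPM in vehicle, so the groups overlapped. The 95% interval of that change, -0.70 to 0.23, excludes a fall of the size seen with the other 3 treatments.

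IL6ST, which encodes gp130 itself, moved the other way. It was at 318, 319 and 328 CPM with dexamethasone at 1 µM, against 143, 160 and 165 CPM in vehicle, far above vehicle in every hormone library (log2 change 1.04, SE 0.08, adjusted p = 1.42e-13). Dexamethasone at 0.01 µM gave 208, 287 and 290 CPM, against 143, 159 and 159 CPM in vehicle. The lowest of these hormone libraries, at 208 CPM from 423 counts, is again the one dominated by ribosomal RNA. The change was 0.77 (SE 0.08, adjusted p = 1.41e-09), and 0.93 without the 7 libraries above 75% (adjusted p = 4.43e-12). Hydrocortisone at 10 µM gave 297, 312 and 330 CPM, against 138, 160 and 164 CPM in vehicle (1.03, SE 0.08, adjusted p = 4.31e-13). In these 3 comparisons no hormone library overlapped a vehicle library. With hydrocortisone at 0.01 µM the libraries held 153, 159 and 164 CPM, against 153, 161 and 164 CPM in vehicle, and the interval of the change was narrow (-0.17 to 0.16).

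**Figure D1:**
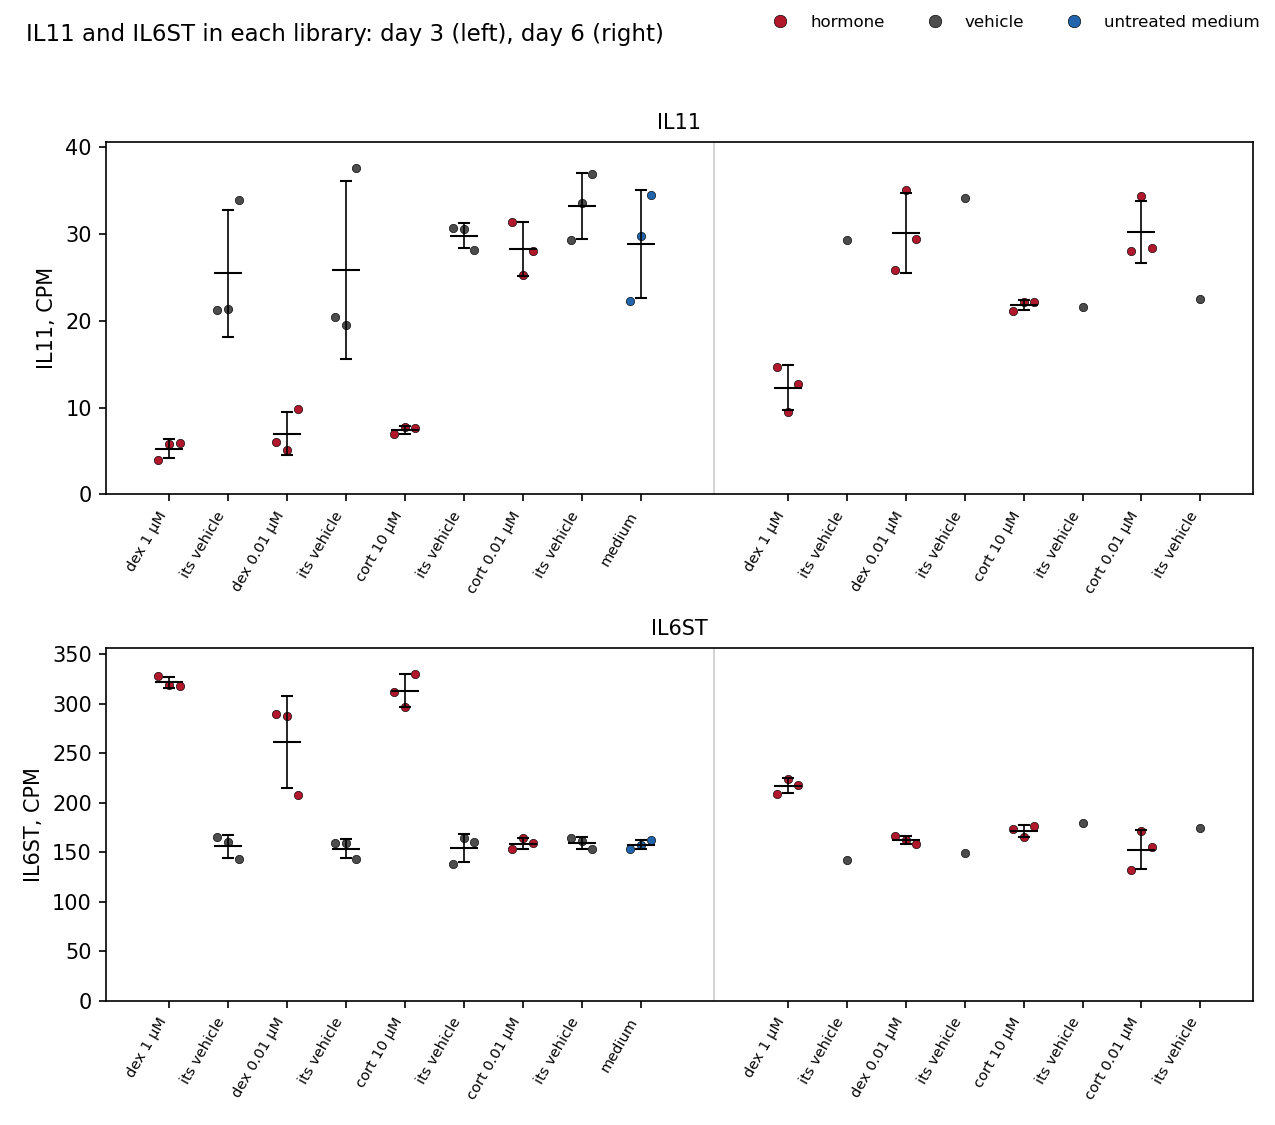
IL11 (top) and IL6ST (bottom) in CPM for each of the 43 libraries, with day 3 left and day 6 right and every hormone group left of its vehicle; points are libraries, bars the mean and SD of groups of 3. On day 3, IL11 lies between 4 and 9.81 CPM in the 9 libraries of the 3 responding treatments, and IL6ST between 208 and 330 CPM, away from all vehicle and medium libraries.

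OSMR, the chain that joins gp130 in the oncostatin M receptor, was lower by a smaller amount. Its values were 48.7, 49.9 and 50.9 CPM with dexamethasone at 1 µM, against 58.0, 60.7 and 61.6 CPM in vehicle. The groups were separate and the fall passed (log2 change -0.27, SE 0.08, adjusted p = 0.0124). Hydrocortisone at 10 µM gave 51.5, 53.5 and 58.1 CPM, against 61.3, 69.3 and 76.3 CPM in vehicle (-0.34, SE 0.08, adjusted p = 0.00257). Against untreated medium this second fall did not pass (-0.11, adjusted p = 0.407), and that vehicle group had the highest mean OSMR of day 3 (69 CPM). Dexamethasone at 0.01 µM gave 47.2, 54.0 and 60.3 CPM, against 58.3, 60 and 62.6 CPM in vehicle. There was overlap and no call (-0.16, 95% interval -0.33 to 0.00, adjusted p = 0.193). The library at 60.3 CPM, from 123 counts, is the one dominated by ribosomal RNA. Without the 7 libraries above 75% the change was -0.24 (edgeR adjusted p = 0.134). It passed in 1 of 9 other settings, against all day 3 vehicles (-0.23, edgeR adjusted p = 0.00855). Hydrocortisone at 0.01 µM gave 56.6 to 59.5 CPM, against 61.1 to 65.4 CPM in vehicle, separate groups without a call (-0.12, -0.28 to 0.05). OSMR and IL6ST therefore had changes of opposite sign with dexamethasone at 1 µM and hydrocortisone at 10 µM.

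LIF, a cytokine that keeps stem cells undifferentiated and signals from injured tissue, varied widely between replicates. With dexamethasone at 1 µM it was at 12.8, 19 and 19.1 CPM, against 12.6, 14 and 27.3 CPM in vehicle. With dexamethasone at 0.01 µM it was at 11.3, 11.7 and 24.0 CPM, against 12.8, 17.6 and 29.4 CPM in vehicle. Both pairs of groups overlapped (-0.08, 95% interval -0.73 to 0.56, and -0.37, -1.02 to 0.28). Hydrocortisone at 10 µM gave 11.7, 15.2 and 18.6 CPM, against 22.4, 22.8 and 24.2 CPM in vehicle. These groups were separate, and the change did not pass (-0.61, -1.26 to 0.04, adjusted p = 0.226). It passed when the 2 groups were fitted alone (-0.61, adjusted p = 0.0146) and with the replicate number as a block (-0.88, adjusted p = 0.00992). At 0.01 µM hydrocortisone LIF was at 24.4 to 29.8 CPM, against 22.6 to 36.5 CPM in vehicle (-0.11, -0.75 to 0.53). These intervals allow changes of LIF in either direction, but not for a fall as deep as the 3 of IL11. In the dexamethasone vehicles the library with the most LIF was in each group also the library with the most IL11 (27.3 and 33.9 CPM, and 29.4 and 37.6 CPM). The same held in the vehicle of hydrocortisone at 0.01 µM (36.5 and 36.9 CPM). In the vehicle of hydrocortisone at 10 µM the library with the most LIF (24.2 CPM) had the least IL11 (28.1 CPM).

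STAT3, the transcription factor at the end of the route, was slightly higher with dexamethasone. Its values were 86.7, 86.9 and 88.4 CPM at 1 µM, against 71.4, 75.1 and 78.3 CPM in vehicle. The groups were separate and the rise passed (log2 change 0.22, SE 0.07, adjusted p = 0.0154), though not without dexamethasone replicate 4 (0.21, adjusted p = 0.0524) or without vehicle replicate 2 (0.19, adjusted p = 0.0966). At 0.01 µM the values were 80.9, 86.1 and 89.8 CPM, against 73.4, 76.2 and 77.2 CPM in vehicle. These were also separate, with no call (0.18, 95% interval 0.04 to 0.32, adjusted p = 0.0747). This rise passed in 2 of 9 other settings, with all day 3 vehicles (0.20, edgeR adjusted p = 0.00545) or untreated medium (0.28, 0.00307) as reference. It also passed in 1 of 6 fits that each left out 1 library. Hydrocortisone at 10 µM gave 81.9 to 84.7 CPM, against 68.8 to 80.6 CPM in vehicle, without overlap or call (0.13, -0.01 to 0.26, adjusted p = 0.245). This too passed in 2 of 9 other settings, with all day 3 vehicles (0.15, edgeR adjusted p = 0.0304) or untreated medium (0.24, 0.0119) as reference. Hydrocortisone at 0.01 µM gave 66.2 to 72.6 CPM, against 69.6 to 75.5 CPM in vehicle (-0.04, -0.18 to 0.10). The counts measure STAT3 mRNA and carry nothing on its phosphorylation.

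SOCS3, the feedback inhibitor of gp130, did not pass against the own vehicle of any treatment on day 3 in the fit of all libraries. It was at 24.0, 25.8 and 28.2 CPM with dexamethasone at 1 µM, against 30, 35.8 and 36.0 CPM in vehicle. The libraries did not overlap, and the change was -0.38 (SE 0.18, adjusted p = 0.14). It passed when the 2 groups were fitted alone (-0.37, adjusted p = 0.00543). Dexamethasone at 0.01 µM gave 24.0, 28.5 and 28.5 CPM, against 32.2, 33.8 and 37.6 CPM in vehicle (-0.35, SE 0.18, adjusted p = 0.226). Hydrocortisone at 10 µM gave 20.1 to 22.5 CPM, against 21.7 to 25.5 CPM in vehicle (-0.16, 95% interval -0.53 to 0.22). Its vehicle was itself the lowest of the day 3 vehicle groups for SOCS3. Against all day 3 vehicles the change with hydrocortisone at 10 µM was -0.52 and passed (edgeR adjusted p = 0.0109). Set against untreated medium, SOCS3 was lower with all 3 of these treatments (-0.69, -0.63 and -0.97 in the order given, adjusted p = 0.00678, 0.0177 and 0.00027). Vehicle without hormone was itself at 30.9 CPM, against 41.8 CPM in medium (-0.45, 95% interval -0.74 to -0.16, not called). The medium reference thus does not separate hormone from ethanol. Hydrocortisone at 0.01 µM gave 30.7 to 34.6 CPM, against 25.8 to 37.2 CPM in vehicle (0.03, -0.34 to 0.40).

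**Figure D2:**
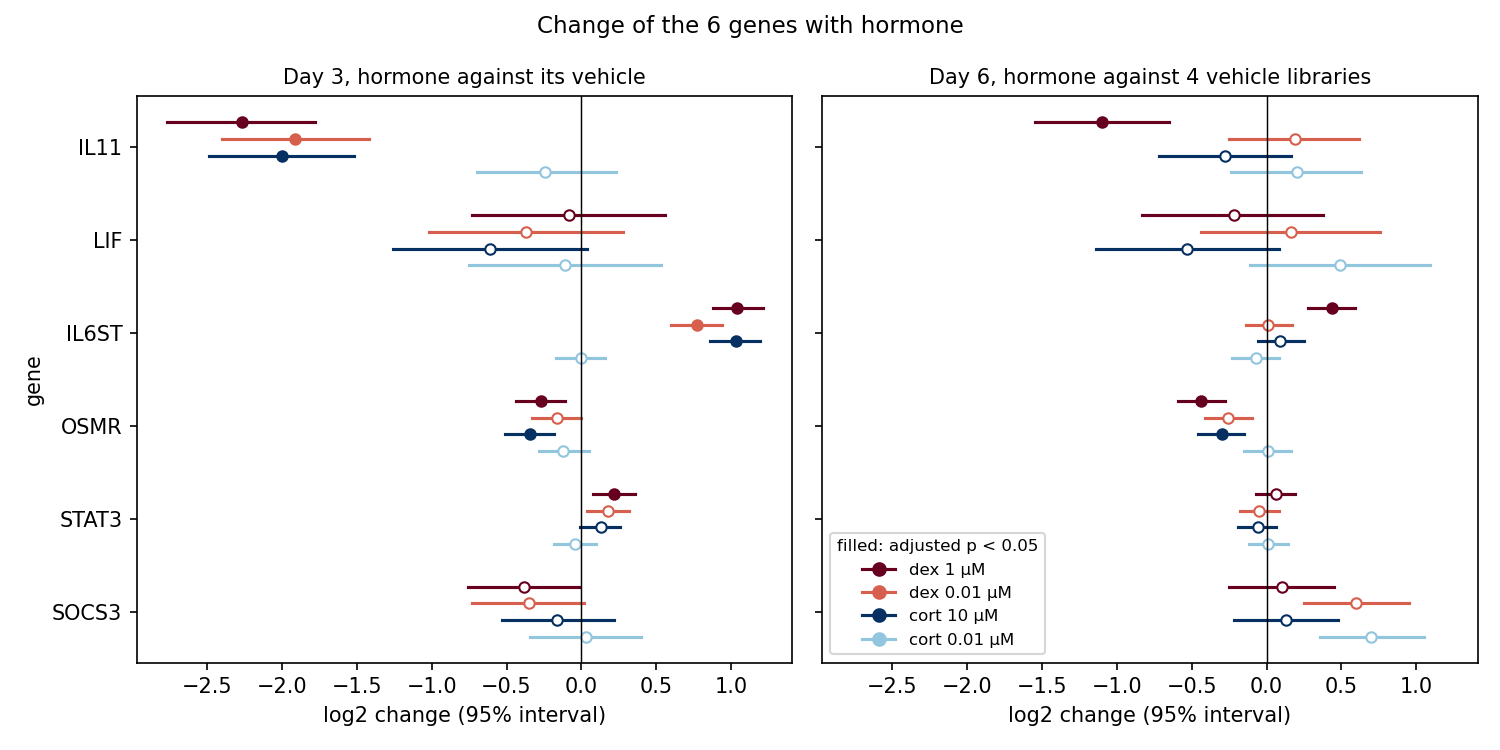
Log2 change of the 6 genes with hormone, with its 95% interval, on day 3 against the vehicle of the same hormone and dose (left) and on day 6 against the 4 vehicle libraries (right); filled points passed the adjusted p of 0.05. IL11 sits between -2.27 and -1.91 and IL6ST between 0.77 and 1.04 for the 3 responding treatments of day 3, while on day 6 the filled points are those of dexamethasone at 1 µM for IL11, IL6ST and OSMR and that of hydrocortisone at 10 µM for OSMR.

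Hydrocortisone at 0.01 µM on day 3 called 0% of all tested genes. edgeR called 0 of 16816 genes and DESeq2 called 1, with 397 genes at an unadjusted p under 0.05. FKBP5, another hormone-induced gene, was at 32 ± 5.18 CPM with this dose and at 34.7 ± 1.66 CPM in its vehicle.

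Some features of the libraries moved with the strongest treatment. The summed microglia markers were at 1.05 to 2.1 CPM with dexamethasone at 1 µM on day 3, against 0.254 to 0.589 CPM in its vehicle. This sum covers 3 genes with medians of 0.112 to 0.273 CPM, so it rests on few reads. The summed fibroblast and pericyte markers were at 4950 to 5310 CPM, against 4490 to 4720 CPM. With dexamethasone at 0.01 µM both sums overlapped with those of its vehicle (0 to 0.558 against 0.368 to 0.627 CPM, and 4760 to 5920 against 4580 to 5120 CPM). With hydrocortisone at 10 µM these sums overlapped with those of its vehicle (0.788 to 1.16 against 0.295 to 1.3 CPM, and 4610 to 4980 against 4680 to 5160 CPM). Their part in the changes of the 6 genes was not tested.

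**Figure D3:**
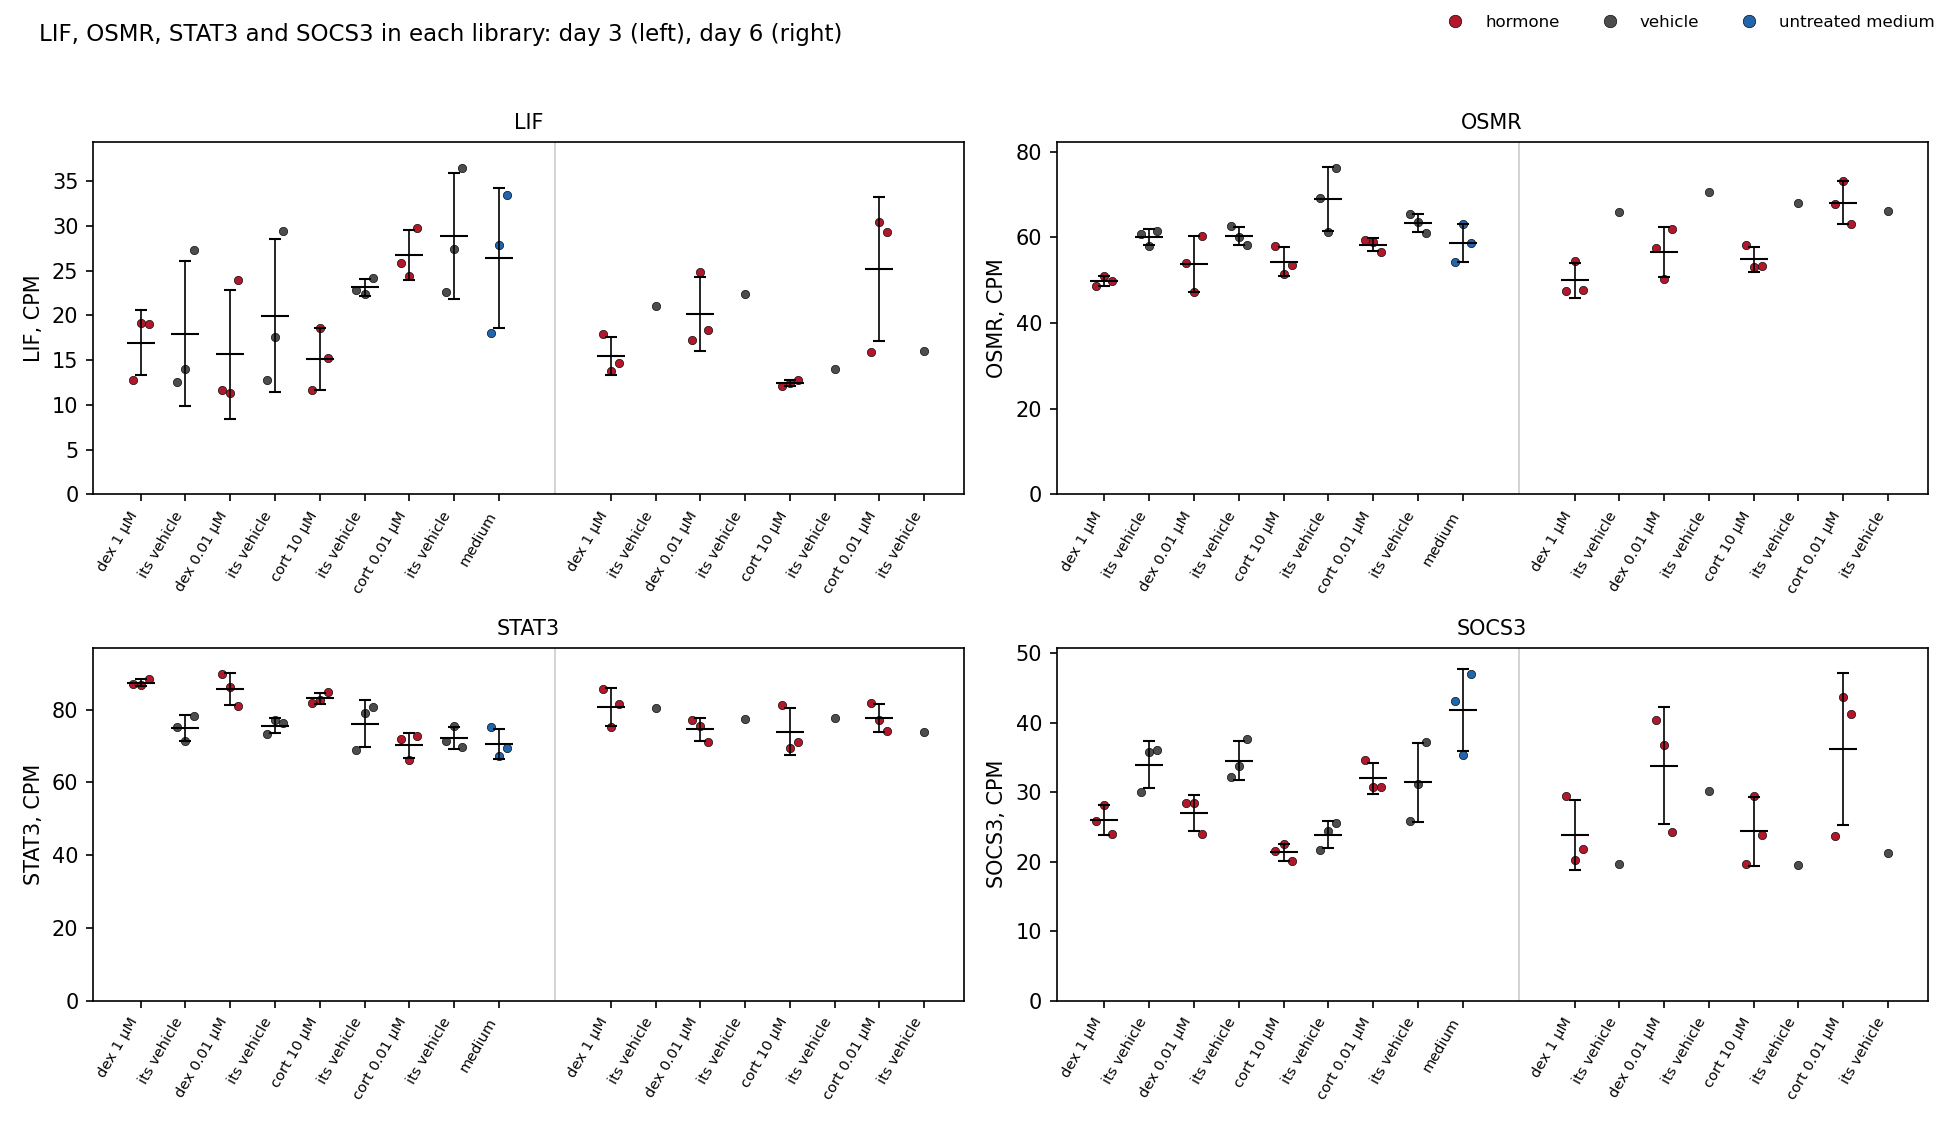
LIF, OSMR, STAT3 and SOCS3 in CPM for each library, laid out as in the plot of IL11 and IL6ST, with day 3 left and day 6 right, hormone groups left of their vehicles, and bars for the mean and SD. Hormone and vehicle libraries lie close together compared with IL11 and IL6ST, and LIF and SOCS3 show the widest spread within groups (LIF 12.8 to 29.4 CPM in 1 vehicle group).

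The next question was whether dose and hormone mattered. These comparisons take the difference of 2 hormone effects, each against its own vehicle on day 3. Between dexamethasone at 1 and 0.01 µM no member passed, where 0.0476% of all genes did. IL11 differed by -0.36 (95% interval -1.03 to 0.31), OSMR by -0.11 (-0.34 to 0.13) and STAT3 by 0.04 (-0.15 to 0.24). For IL6ST the interval lay above 0 (0.27, 0.04 to 0.51) and the adjusted p was 0.67. Leaving out the 7 ribosomal-rich libraries brought the dose differences to 0.00 for IL11 and 0.12 for IL6ST. Between hydrocortisone at 10 and 0.01 µM, 2 of 6 members passed, against 4.09% of all genes. IL11 differed by -1.77 (SE 0.33, adjusted p = 0.000766) and IL6ST by 1.03 (SE 0.12, adjusted p = 2.25e-08). The other 4 had differences of -0.50 (LIF, -1.41 to 0.41), -0.22 (OSMR, -0.46 to 0.01), 0.16 (STAT3, -0.03 to 0.36) and -0.19 (SOCS3, -0.72 to 0.34).

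Dexamethasone is a synthetic relative of hydrocortisone with a fluorine atom, an extra ring double bond and an extra methyl group. The 2 hormones share 1 dose, 0.01 µM, so 1 pair was compared. At that dose on day 3 the effects differed for IL11 (-1.68, SE 0.33, adjusted p = 0.00156) and IL6ST (0.77, SE 0.12, adjusted p = 1.05e-05), 2 of 6 members against 4.98% of all genes. With dexamethasone IL11 was at 6.99 ± 2.48 CPM and with hydrocortisone at 28.2 ± 3.12 CPM. IL6ST was at 262 ± 46.9 CPM with dexamethasone and at 159 ± 5.48 CPM with hydrocortisone (SD, n = 3 each). For the others the difference between hormones did not pass, with intervals of -1.17 to 0.66 (LIF), -0.28 to 0.19 (OSMR), 0.02 to 0.41 (STAT3, adjusted p = 0.228) and -0.91 to 0.15 (SOCS3). At their high doses, which differ, dexamethasone at 1 µM and hydrocortisone at 10 µM had IL11 at 5.26 ± 1.09 and 7.41 ± 0.421 CPM and IL6ST at 322 ± 5.68 and 313 ± 16.4 CPM.

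The third question was what remained after washout. On day 6, 3 of 6 members were still changed by dexamethasone at 1 µM, against 10.2% of all genes, and in the same directions as on day 3. IL11 was at 9.48, 12.7 and 14.7 CPM, against 21.6, 22.5, 29.3 and 34.1 CPM in the 4 vehicle libraries (log2 change -1.10, SE 0.22, adjusted p = 0.001). IL6ST was at 209, 218 and 224 CPM, against 142, 149, 174 and 179 CPM in vehicle (0.44, SE 0.08, adjusted p = 6.33e-05). OSMR was at 47.6, 47.7 and 54.6 CPM, against 66.0, 66.1, 68.1 and 70.5 CPM in vehicle (-0.44, SE 0.08, adjusted p = 6.69e-05). None of these 3 genes had overlapping groups, a description that was not counted over all genes. STAT3 no longer differed by more than its spread (0.06, 95% interval -0.07 to 0.19), and LIF (-0.22, -0.83 to 0.38) and SOCS3 (0.10, -0.25 to 0.45) did not pass.

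After the other treatments little was left. Hydrocortisone at 10 µM had 1 of 6 members called, against 0.892% of all genes. This was OSMR, at 53.1, 53.4 and 58.3 CPM, below the same 4 vehicle libraries (-0.30, SE 0.08, adjusted p = 0.0416), and the call was lost against its own single day 6 vehicle (-0.31, adjusted p = 0.717) and in 6 of 7 fits that each left out 1 library. IL11 had come back to 21.1, 22.1 and 22.1 CPM (-0.28, -0.72 to 0.16) and IL6ST to 165, 173 and 176 CPM (0.09, -0.06 to 0.25). Dexamethasone at 0.01 µM called no member, and 0.0833% of all genes. IL11 was at 25.8, 29.4 and 35 CPM (0.19, -0.25 to 0.62), IL6ST at 158 to 166 CPM (0.01, -0.14 to 0.17) and OSMR at 50.4 to 61.9 CPM, below every vehicle library without passing (-0.26, adjusted p = 0.272). Hydrocortisone at 0.01 µM called no member either, and 0.0892% of all genes. Its largest value was that of SOCS3, at 23.7, 41.2 and 43.7 CPM, against 19.5, 19.6, 21.3 and 30.2 CPM in vehicle (0.70, SE 0.17, adjusted p = 0.0927). SOCS3 with dexamethasone at 0.01 µM was similar, at 24.3, 36.8 and 40.3 CPM (0.60, adjusted p = 0.259).

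The change over washout was tested by subtracting the day 3 effect from that of day 6, with all vehicle groups of a day as its reference. For IL11 it was 1.33 with dexamethasone at 1 µM (SE 0.28, adjusted p = 0.00865), 2.23 at 0.01 µM (SE 0.29, adjusted p = 4.5e-06) and 1.66 with hydrocortisone at 10 µM (SE 0.28, adjusted p = 0.000245). For IL6ST it was -0.61 (adjusted p = 0.000105), -0.74 (adjusted p = 9.4e-07) and -0.91 (adjusted p = 8.26e-09) in the same order. Both genes thus moved back towards vehicle with all 3 treatments. Against the own vehicles of each day, where day 6 has 1 library, the dexamethasone 1 µM values were 1.02 for IL11 (adjusted p = 0.228) and -0.43 for IL6ST (adjusted p = 0.11). OSMR did not pass in any washout comparison and had values of -0.10, -0.03 and -0.09. SOCS3 was called once, with dexamethasone at 0.01 µM (0.78, SE 0.23, adjusted p = 0.0333), and its vehicle libraries were at 19.5 to 30.2 CPM on day 6 and 21.7 to 37.6 CPM on day 3. That call was lost without the 7 ribosomal-rich libraries (0.69, adjusted p = 0.0852), with own vehicles of each day (0.51, adjusted p = 0.46), without ribosomal RNA genes (0.77, adjusted p = 0.0607) and with the flask as a block (0.77, adjusted p = 0.077), since day 6 cells came from the day 3 flasks. It was also lost without dexamethasone 0.01 µM replicate 3 of day 3 (0.70) or replicate 1 (0.63) or 2 (0.71) of day 6, or without the day 6 vehicle of dexamethasone at 1 µM (0.72) or of hydrocortisone at 10 µM (0.72). The members called were 2, 3 and 2 of 6, against 1.69, 6.54 and 6.97% of all genes. With hydrocortisone at 0.01 µM no member passed, against 0.00595% of all genes.

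Vehicle against medium called none of the 6 genes, although the interval for SOCS3 lay below 0. The 12 vehicle libraries of day 3 had IL11 at 28.6 ± 6.53 CPM and the 3 medium libraries at 28.8 ± 6.22 CPM (-0.02, 95% interval -0.39 to 0.35). For IL6ST the means were 156 ± 9.42 CPM in vehicle and 158 ± 4.54 CPM in medium (-0.02, -0.15 to 0.11). SOCS3 was at 21.7 to 37.6 CPM in vehicle, with a mean of 30.9 ± 5.45, and at 35.3, 43.1 and 47 CPM in medium (-0.45, -0.74 to -0.16, adjusted p = 0.806). This comparison called 0% of all genes: edgeR called 0 of 16816, DESeq2 0, and 902 had an unadjusted p under 0.05. Day 6 vehicle against day 3 vehicle called no member, and 0.505% of all genes. IL11 was at 26.9 ± 5.92 CPM on day 6 and 28.6 ± 6.53 CPM on day 3 (n = 4 and 12), and IL6ST at 161 ± 18.2 and 156 ± 9.42 CPM. SOCS3 was at 22.6 ± 5.12 CPM on day 6 and 30.9 ± 5.45 CPM on day 3 (-0.46, -0.73 to -0.19, adjusted p = 0.127).

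Ranked over all 17 groups, IL11 was lowest with dexamethasone at 1 µM on day 3 (mean 5.26 CPM), then dexamethasone at 0.01 µM (6.99) and hydrocortisone at 10 µM (7.41) on day 3, and these neighbours overlapped. Next came dexamethasone at 1 µM on day 6 (12.3), which overlapped with neither neighbour in rank. Its lowest library (9.48 CPM) was below the highest of dexamethasone at 0.01 µM on day 3 (9.81 CPM). The other 13 groups lay between 21.6 and 34.1 CPM with overlapping libraries for most neighbours. IL6ST ran the other way, with dexamethasone at 1 µM (322 CPM), hydrocortisone at 10 µM (313) and dexamethasone at 0.01 µM (262) on day 3 at the top, dexamethasone at 1 µM on day 6 next (217), and the other 13 groups between 142 and 179 CPM. The 313 and 262 CPM groups did not overlap, and the 262 and 217 CPM groups did. OSMR was lowest in the dexamethasone 1 µM groups of day 3 (49.8 CPM) and day 6 (50) and highest in a day 6 vehicle (70.5). STAT3 spanned 70.2 to 87.3 CPM, with the 3 responding treatments of day 3 on top. LIF ran from 12.5 CPM with hydrocortisone at 10 µM on day 6 to 28.8 CPM in a day 3 vehicle, and SOCS3 from 19.5 CPM in a day 6 vehicle to 41.8 CPM in medium, with nearly every neighbour overlapping.

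Across the 17 group means, which share library preparation and fall largely into responding and other groups, the Pearson correlation of IL11 was -0.97 with IL6ST, -0.81 with STAT3, 0.73 with OSMR, 0.60 with LIF and 0.34 with SOCS3. SOCS3 and STAT3 stood at -0.47. Among 11669 genes compared in this way, those most like IL11 were PCDHGC3 (0.979), HBEGF (0.979), NCEH1 (0.977), QSOX1 (0.973) and F3 (0.972). HBEGF encodes a growth factor of the EGF family and F3 tissue factor, the starter of coagulation. Those most like IL6ST were PON2 (0.983), the drug efflux pump gene ABCB1 (0.979) and HACD2 (0.977). For OSMR they were FSTL1 (0.927), PRICKLE1 (0.922) and the EGF receptor gene EGFR (0.921), and for STAT3 MYO9A (0.929), VGLL3 (0.922) and MBNL1-AS1 (0.913). The closest to LIF were TRIB1 (0.871), PAXIP1 (0.866) and PLAU (0.862), and to SOCS3 MCM3 (0.850), IRF2BP2 (0.830) and GADD45A (0.817). These are descriptions of like patterns and say nothing of shared control.

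Several members share sequence with other genes, and whether the counting used strand is not given in the sources used here. Within the bounds of IL6ST, on the opposite strand, lies the processed pseudogene AC016596.1 (ENSG00000264281), which shares no exon base with it and had a median of 2049 counts. It fell where IL6ST rose, by 0.46, 0.34 and 0.24 on the log2 scale with dexamethasone at 1 µM, dexamethasone at 0.01 µM and hydrocortisone at 10 µM on day 3 (adjusted p = 6.23e-06, 0.000944 and 0.0297). IL6STP1, a processed pseudogene copy of IL6ST on another chromosome, rose by 0.95, 1.20 and 1.13 at levels of 2.72, 2.96 and 2.22 CPM, so reads may be shared with IL6ST to that small extent. RICTOR shares 229 exon bases with OSMR on the opposite strand and was not called (-0.23, -0.14 and 0.06). LIF-AS1, antisense to LIF with 92 shared exon bases, had a median of 1 count. The annotation also holds AC008914.1, antisense to IL6ST with 797 shared exon bases, and AC004264.1, antisense to LIF with 175, whose counts were not analysed here.

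The wider route was followed with a list of 67 genes by role, also chosen with earlier results of these data known. Of these, 60 were in the table and 57 were tested, the 6 members included. CNTFR and PTPN6 were among those below the count filter, and OSM, IL27, IL31, LBP, SERPINA3, IL1A and TNF were not analysed here. With dexamethasone at 1 µM on day 3, 12 rose, 12 fell and 33 did not pass (42.1% called, against 22.6% of all genes, median log2 change 0.08 against 0.02). With dexamethasone at 0.01 µM, 8 rose and 10 fell (31.6%, against 14%, median 0.07 against 0.00). With hydrocortisone at 10 µM, 9 rose and 12 fell (36.8%, against 13.1%, median 0.01 against 0.01), and with hydrocortisone at 0.01 µM none passed. Rises and falls were thus close in number with each of the first 3 treatments. Without the 6 members, 39.2, 31.4 and 35.3% of the list were called with these, in the order given. On day 6, 5 rose and 6 fell with dexamethasone at 1 µM (19.3%, against 10.2%). With hydrocortisone on day 6, 1 rose and 1 fell at 10 µM (3.51%, against 0.892%), and 1 rose at 0.01 µM (1.75%, against 0.0892%). None passed with dexamethasone at 0.01 µM on day 6. Without the 6 members, the day 6 shares were 15.7% with dexamethasone at 1 µM and 1.96% with hydrocortisone at either dose.

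None of the 5 other tested ligands passed with any of the 4 treatments on day 3. IL6, the founding member of the family, had a median of 4 CPM in the day 3 vehicles, against 29.9 for IL11 and 22.7 for LIF, or 1.93, 11.2 and 5.72 CPM per kb. Of the 5 other tested receptors, IL6R, the binding chain for IL-6, fell by 0.98, 0.75 and 0.81 with dexamethasone at 1 µM, dexamethasone at 0.01 µM and hydrocortisone at 10 µM (adjusted p = 0.00345, 0.0476 and 0.0259). IL11RA, the chain that receives IL11, rose with dexamethasone at 1 µM (0.50, SE 0.18, adjusted p = 0.0449). LIFR, the chain that receives LIF, rose with hydrocortisone at 10 µM (0.31, SE 0.10, adjusted p = 0.0289). IL31RA, at a median of 1.2 CPM in the day 3 vehicles, fell with dexamethasone at 0.01 µM (-1.71) and hydrocortisone at 10 µM (-1.66). Per length the gp130 transcript exceeded its partner chains in the day 3 vehicles, at 17.2 CPM per kb for IL6ST, 8.57 for OSMR, 1.77 for LIFR, 1.15 for IL11RA and 0.275 for IL6R.

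Among 6 kinases and adaptors, PTPN11, the phosphatase SHP2 that links gp130 to the MAP kinase route, fell by 0.27, 0.17 and 0.17 with the same 3 treatments (adjusted p = 0.000298, 0.036 and 0.048). The adaptor SHC1 fell by 0.22 with dexamethasone at 1 µM and by 0.23 with hydrocortisone at 10 µM. The kinase gene TYK2 rose with dexamethasone at 1 µM (0.31, adjusted p = 0.0416) and JAK2 with dexamethasone at 0.01 µM (0.54, adjusted p = 0.0117). None of the 3 other STAT genes passed. Of 6 other feedback inhibitors, SOCS2, a brake on growth hormone signalling, fell with dexamethasone at 1 µM (-1.04, adjusted p = 0.000398) and 0.01 µM (-0.74, adjusted p = 0.021). PIAS3, an inhibitor of STAT3, rose with dexamethasone at 0.01 µM (0.33) and hydrocortisone at 10 µM (0.34).

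Of 16 tested genes known as STAT3 targets in other cells, 6 rose and 4 fell with dexamethasone at 1 µM, 3 and 3 with dexamethasone at 0.01 µM, and 4 and 4 with hydrocortisone at 10 µM. This was 62.5, 37.5 and 50% of the 16, against 22.6, 14 and 13.1% of all genes. CCND1, the cyclin that drives entry into the cell cycle, fell by 1.12, 1.10 and 1.15. Its libraries held 52.9, 62 and 62.3 CPM with dexamethasone at 1 µM, against 119, 120 and 145 CPM in vehicle. BCL2L1, which encodes the survival protein Bcl-xL, rose by 0.74, 0.55 and 0.60, and HIF1A, the oxygen-regulated factor, by 0.57, 0.41 and 0.61. CEBPD, a transcription factor also known to be induced by glucocorticoids, rose by 2.10, 1.63 and 1.54. MYC fell with hydrocortisone at 10 µM (-0.51, adjusted p = 0.000122). The targets of the list therefore moved in both directions within each treatment.

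The list also held 10 tested genes known to drive IL11 or LIF. FOSL1, a Fos family partner in AP-1, fell by 1.24, 1.30 and 1.31 with dexamethasone at 1 µM, dexamethasone at 0.01 µM and hydrocortisone at 10 µM on day 3 (adjusted p = 1.08e-12, 9.75e-13 and 4.7e-13). Its libraries held 18.4, 19.3 and 22.8 CPM with dexamethasone at 1 µM, against 43.1, 49.6 and 50.3 CPM in vehicle. The receptors for TGF-beta, TGFBR1 and TGFBR2, rose by 0.41 and 0.76, by 0.47 and 0.57, and by 0.47 and 0.69 in the same order. TGFB2, one of the TGF-beta ligands, fell with dexamethasone at 1 µM (-0.61, adjusted p = 0.00281). IL1B had 0 counts in all 3 libraries with dexamethasone at 0.01 µM, against 2, 2 and 10 counts in vehicle (adjusted p = 0.00107), so its call rests on few reads. On day 6 TGFBR2 was still higher with dexamethasone at 1 µM (0.88, adjusted p = 3.38e-07) and with hydrocortisone at 10 µM (0.57, adjusted p = 0.00574). Over washout FOSL1 rose by 1.07, 1.46 and 1.23 and CCND1 by 0.78, 1.10 and 0.95 with the 3 treatments in the order above. These comparisons called 1.69, 6.54 and 6.97% of all genes. Whether FOSL1 or CCND1 had a part in the changes of IL11 was not tested.

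**Figure D4:**
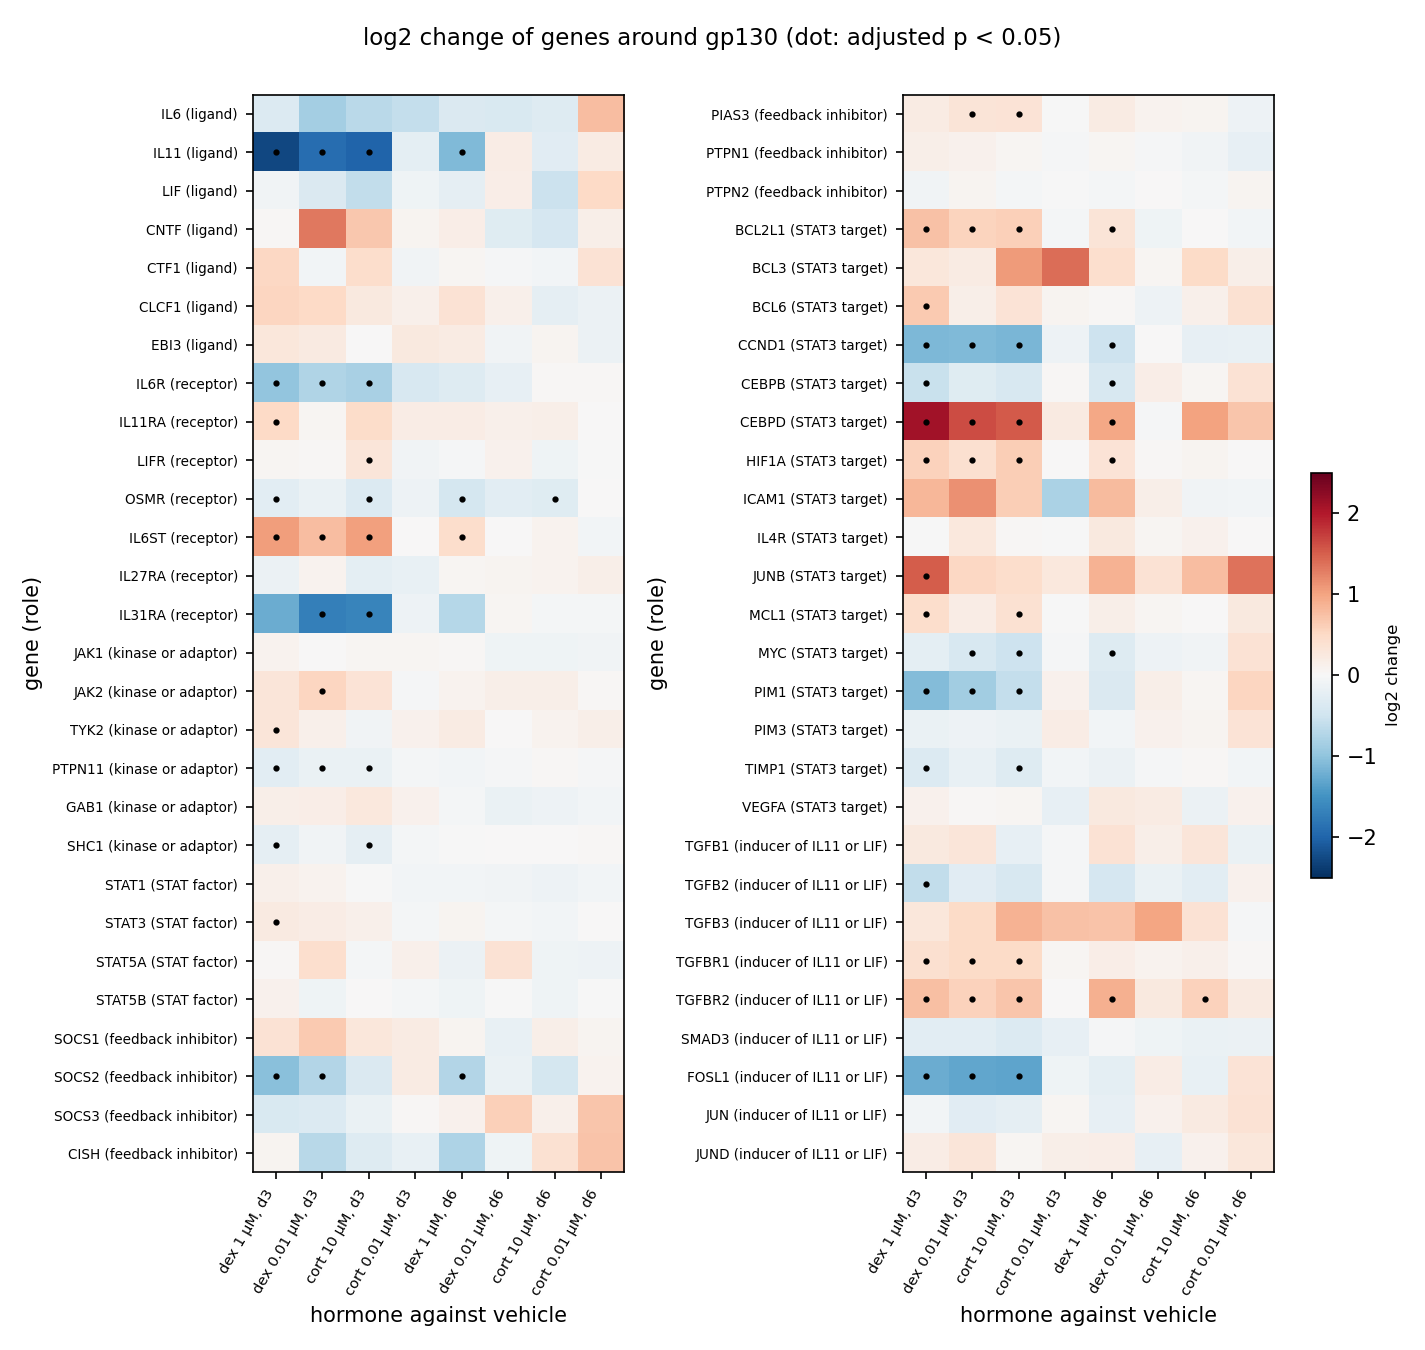
Log2 change of the tested genes around gp130, by role, in the 4 hormone comparisons of day 3 and the 4 of day 6, with dots where the adjusted p was below 0.05 (IL1B is left out because 1 group has no counts). Red is higher and blue lower with hormone. IL11, CCND1 and FOSL1 are blue and IL6ST, BCL2L1 and CEBPD red in 3 of the 4 day 3 columns. The day 3 column of hydrocortisone at 0.01 µM has no dot.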

How the data were processed

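Per the labels' protocols, RNA of HMC3 cells was sequenced as total RNA. The authors deposited raw counts, 1 whole number per gene and library, with Ensembl identifiers. GRCh38, STAR, Subread with featureCounts, and FastQC are named in the submitters' processing notes. Their versions, their order and the strand setting were not given in the sources used here. Libraries were grouped by their titles. Each of the 4 vehicle groups of day 6 is a single library, taken to scatter as much as libraries elsewhere.

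All 43 libraries entered one edgeR fit (edgeR 4.0.16, R 4.3.3, TMM scaling, filterByExpr at its count limit of 10 and total limit of 15, robust glmQLFit without the legacy option) with a coefficient for each of 17 groups and 26 residual degrees of freedom. It was tested on simulated data. Of 20052 genes, 16816 were tested in 17 comparisons, with Benjamini-Hochberg adjustment over all of them. Depth per library is given above and limits the precision of low genes. Current symbols were found for 19978 genes and GENCODE v29 names served for 70, positions came from GENCODE v29 and promoters from RefSeq.

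Beside the 6 members, the genes named are up to 4 per role of the pathway list with the smallest p in each day 3 hormone comparison, up to 2 in others, those most like a member, and hormone-induced control genes. CPM values of single libraries, AC016596.1, IL6STP1 and RICTOR were added because they bear on the members. The members and lists were chosen with earlier results of these data known. Alternatives were DESeq2 1.42.0, RLE scaling, no filter, no ribosomal genes, other references, a replicate block, the 2 groups alone, single libraries left out, and, chosen after seeing the data, the 7 libraries above 75% ribosomal counts left out.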

Additional observations from a re-analysis of the deposited data

Results flagged for a closer look

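Among the 4 vehicle libraries of day 6, SOCS3 was at 19.5, 19.6, 21.3 and 30.2 CPM. The gap between the highest library, the vehicle of dexamethasone at 0.01 µM, and the next was 0.832 of the whole range, past Dixon's critical value for 4 samples. Chance flags about 5% of such groups, and 6 genes were examined.

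The effect of hormone differed between day 6 and day 3 by a test of the difference itself for IL11 with dexamethasone at 1 µM (1.33 on the log2 scale), dexamethasone at 0.01 µM (2.23) and hydrocortisone at 10 µM (1.66). For IL6ST the differences were -0.61, -0.74 and -0.91 in the same order. SOCS3 differed with dexamethasone at 0.01 µM (0.78).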

How the results depend on the processing

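Counts are of the 6 genes called. The number of all genes called was counted only for DESeq2 (25 with hydrocortisone at 0.01 µM on day 6). The other counts in this section therefore have no share of all genes beside them. With all day 3 vehicles as reference, dexamethasone at 0.01 µM called 4 in place of 2, with OSMR and STAT3 added. Hydrocortisone at 10 µM called 5 in place of 3, and the hydrocortisone dose difference 4 in place of 2. STAT3 and SOCS3 were the genes added in each of these. Against untreated medium, dexamethasone at 0.01 µM called 4. On day 6, hydrocortisone at 10 µM called 0 in place of 1 without the count filter (OSMR -0.29, adjusted p = 0.0618) and against its own vehicle library, and hydrocortisone at 0.01 µM called 1 in place of 0 with DESeq2 (SOCS3 0.73, adjusted p = 0.0386). With own vehicles of each day, the washout of dexamethasone at 1 µM called 0 in place of 2. The cause of these differences was not tested.

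Leaving out single libraries gave 3 to 4 for dexamethasone at 1 µM and 2 to 3 at 0.01 µM on day 3, 0 to 1 for hydrocortisone at 10 µM and at 0.01 µM on day 6, and for washout 2 to 4 with dexamethasone at 0.01 µM and with hydrocortisone at 10 µM (4 without day 6 replicate 2). SOCS3 with hydrocortisone at 0.01 µM on day 6 passed without its replicate 2 (0.93, adjusted p = 0.00509) or without the day 6 vehicle of dexamethasone at 0.01 µM (0.85, adjusted p = 0.03). IL11 and IL6ST stayed called on day 3 whichever library was left out, at -2.39 to -1.54 and 0.69 to 1.09. No called value changed sign. Over the 6 genes and 17 comparisons, 1973 alternative values kept their side of the threshold, 27 passed newly and 22 no longer passed.

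Libraries with the same replicate number did not deviate together (median correlation 0.00 over 94 pairs, 23 above 0.1), so numbers were not taken as pairs. With the replicate number as a block, day 3 called 4, 2, 4 and 0 genes and day 6 called 3, 0, 1 and 0, in the order dexamethasone 1 and 0.01 µM, hydrocortisone 10 and 0.01 µM. By flask, where 7 of 12 pairs were above 0.1, washout called 2, 2, 2 and 0, losing SOCS3 with dexamethasone at 0.01 µM. Depth limits IL11 most, at 20 counts in the poorest library, where LIF and SOCS3 had 49 each.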
